A study of Mus musculus with 16 samples.

Results

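The genes described here encode 9 receptors and adhesion molecules that guide thymocytes: the chemokine receptors Ccr9, Ccr7, Ccr4 and Cxcr4, the sphingosine 1-phosphate receptor S1pr1, the integrin subunits Itgae, Itga4 and Itgb7, and the selectin ligand Selplg. They were chosen by symbol from the 22114 protein-coding genes of the read-count tables, and all 9 passed the filter on low counts in both tables. RNA came from sorted DN3 thymocytes (CD4-CD8-CD25+CD44-), the immature T-cell stage at which the T-cell receptor beta chain is rearranged, and the mice were C57BL/6 by the labels and C57BL/6J by the study's methods (the study's methods describe RNA from sorted cells pooled over several mice for expression profiling, and the labels do not say which mice went into a library). In the first experiment H2B-GFP;Lmo2Tg mice, which carry the Lmo2 transgene under the CD2 promoter and a doxycycline-inducible histone-GFP fusion, received doxycycline for 6 weeks and were chased without it for 2 weeks. DN3 cells that had kept the label because they divided little (GFPhi, 3 libraries) were compared with cells that had diluted it (GFPlo, 3 libraries), and every one of these 6 libraries carries the transgene. In the second experiment total DN3 cells of 6-week-old mice were compared across wild-type (3 libraries), p21-/- (2 libraries, lacking the cell-cycle inhibitor encoded by Cdkn1a), Lmo2Tg (2 libraries, called A and B here) and Lmo2Tg;p21-/- (2 libraries). The columns of A and B were assigned to Lmo2Tg by the naming pattern of the genotype columns. Their names also occur in the labels as descriptions of GFPlo samples, so only the group was taken.

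Progenitors enter the thymus and T-cell precursors travel through it by following chemokines. CCR9 responds to CCL25 and CXCR4 to CXCL12, both made by thymic stroma, and CXCR4 also takes part in the passage through beta-selection. CCR7 and CCR4 serve the later move from cortex to medulla, and S1PR1 lets mature T cells leave the thymus along a sphingosine 1-phosphate gradient. Integrin alpha 4 pairs with beta 1 or beta 7 and binds VCAM-1, fibronectin or MAdCAM-1, whereas alpha E pairs only with beta 7 and binds E-cadherin on epithelium. PSGL-1, the product of Selplg, binds P-selectin when bone marrow progenitors settle in the thymus.

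Total counts ran from 26861394 to 31106213 in the GFP libraries and from 13864936 to 16837667 in the genotype libraries, so 3 counts, taken as the smallest value that can be told from 0 by counting error alone, corresponded to at most 0.112 and 0.222 CPM (reads relative to library size, scaled by TMM). Each member lay above that limit in each library, the lowest being S1pr1 with 5 reads in wild-type replicate 3. On the first principal component, which held 63% of the variance, the GFPhi libraries lay at -35.3, -36.3 and -59.6 (replicates 1 to 3). The GFPlo libraries lay on the other side, between 37.6 and 47.1. On the second, which held 27%, GFPhi replicate 3 stood apart, at 52.3 against -32.4 and -34.9 for the other GFPhi libraries. Its Lmo2 level was 285 CPM against 53.8 and 29.5, and its Cdkn1a level 6.56 CPM against 35.8 and 29.9. Results that rest on it are therefore given with and without it. In the genotype libraries Cdkn1a read 14.3 and 17.7 CPM in p21-/- and 4.35 and 3.50 CPM in Lmo2Tg;p21-/- cells, below the wild-type (36.5 to 49.0 CPM) and Lmo2Tg (32.8 and 26.3 CPM) libraries, and Lmo2 reached at most 0.306 CPM without the transgene. The DN3 markers Il2ra, Ptcra, Cd3e, Rag1, Dntt, Thy1 and Notch1 summed to 6150 CPM or more in each library.

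Promoter sequences were available for 5 members, Ccr9, Ccr4, Cxcr4, Itga4 and Itgb7, in a RefSeq table on GRCm38.p6. Those of Ccr9 and Itgb7 are shown because these genes moved in opposite directions, and by more than 10-fold, with the Lmo2 transgene. The 250 bases upstream of the RefSeq start are written 5′ to 3′ on the gene's own strand, chr9:123766961-123767210 on the plus strand for Ccr9 and chr15:102231936-102232185 on the minus strand for Itgb7. Capitals mark matches, on either strand, to the E-box CANNTG, bound by basic helix-loop-helix factors, and to CCACCC, bound by KLF factors.
Ccr9: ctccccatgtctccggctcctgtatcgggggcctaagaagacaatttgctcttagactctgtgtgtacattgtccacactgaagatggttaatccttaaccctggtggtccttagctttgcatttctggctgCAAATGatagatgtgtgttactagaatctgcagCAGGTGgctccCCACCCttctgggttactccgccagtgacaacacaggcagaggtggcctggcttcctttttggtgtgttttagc
Itgb7: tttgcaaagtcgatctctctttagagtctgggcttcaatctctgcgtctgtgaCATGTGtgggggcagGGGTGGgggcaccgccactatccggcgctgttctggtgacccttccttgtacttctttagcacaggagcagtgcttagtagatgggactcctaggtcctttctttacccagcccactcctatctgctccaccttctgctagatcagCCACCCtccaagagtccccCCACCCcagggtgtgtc
The Ccr9 window held E-boxes starting 118 and 85 bases before the start and 1 CCACCC match at 74, and the Itgb7 window held 1 E-box at 197 and 3 CCACCC matches at 182, 36 and 17. The matches did not overlap one another. Neither window held a match to the GATA core GATAA, to the RUNX core TGTGGT, or to the CSL core TGGGAA, each searched on both strands. Of 32851 promoters of the same length, 66.2% held an E-box, 28.1% the KLF letters, 22.6% the GATA core, 14% the RUNX core and 21.6% the CSL core.

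Transcript levels were compared between genes as RPKM, which divides by exon length (GENCODE M21). In wild-type DN3 cells Selplg (96.6 ± 11.1 RPKM, SD, n = 3) and Cxcr4 (96.0 ± 24.7) were highest and did not differ beyond their spread. Itga4 followed at 63.8 ± 15.5 and Ccr9 at 14.7 ± 0.643 RPKM. Itgb7 (3.17 ± 0.472) and Itgae (2.91 ± 0.564 RPKM) overlapped each other, as did Ccr7 (1.61 ± 0.224) and Ccr4 (1.38 ± 0.106 RPKM), and S1pr1 was lowest at 0.203 ± 0.101 RPKM. The p21-/- libraries kept the same 4 genes above 10 RPKM. In Lmo2Tg cells Itga4, Cxcr4 and Selplg stayed on top without separating from one another (87.6 ± 19.3, 84.6 ± 16.7 and 71.5 ± 6.34 RPKM, n = 2). Next came Itgb7 at 45.6 ± 12 and S1pr1 at 6.36 ± 4.16, while Ccr9 lay at 1.18 ± 0.212 and Itgae was last at 0.477 ± 0.125 RPKM. Itgae was also last in GFPlo cells, at 0.113 ± 0.00829 RPKM (n = 3). Dividing by the longest principal transcript in place of all annotated exons put Selplg alone at the top in each group, at 222 ± 25.5 RPKM in wild-type cells, and raised Ccr9 to 28.9 ± 1.27 RPKM.

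**Figure D1:**
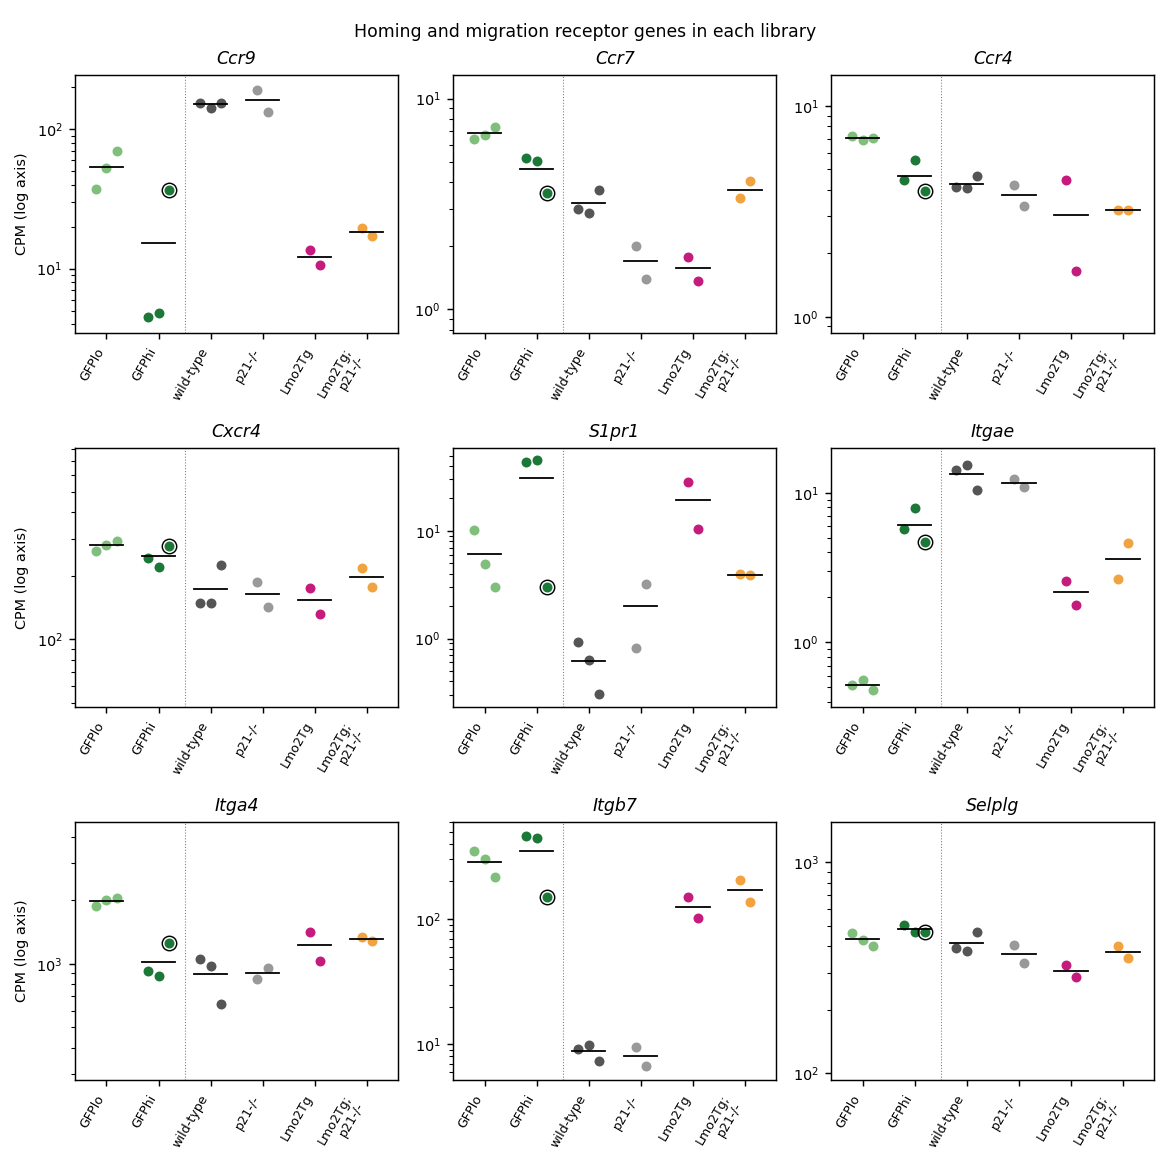
CPM (log axis) of each gene in each library, with 1 point per library, a line at the group mean, and a ring around GFPhi replicate 3. The dotted line separates the tables, which were counted and normalized apart. Itgb7 lies below 10 CPM in the wild-type and p21-/- libraries and above 100 CPM in each library with the transgene.

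The members lie, on GRCm38 with GENCODE M21 genes, at chr9:123678439-123784330 (Ccr9), chr11:99144196-99155077 (Ccr7), chr9:114490316-114504916 (Ccr4), chr1:128588199-128592293 (Cxcr4) and chr3:115710433-115715072 (S1pr1). The integrin genes lie at chr11:73090583-73147446 (Itgae), chr2:79255426-79333123 (Itga4) and chr15:102215995-102231944 (Itgb7), and Selplg at chr5:113818536-113832644. The Ccr9 promoter window printed above, chr9:123766961-123767210, lies inside the GENCODE span of Ccr9. The RefSeq start used for that window is thus downstream of the GENCODE start of the gene.

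The first question was which of these genes distinguish label-retaining from dividing transgenic DN3 cells. In the 6 libraries, 2 of the 9 were called at an adjusted p under 0.05 (edgeR's quasi-likelihood test, Benjamini-Hochberg over 11581 genes), against 14.9% of all genes tested. Itgae was higher in GFPhi cells, as were 5.37% of all genes, and Itga4 was lower, as were 9.49%. The library ranges of 6 members did not overlap, Itgae and Selplg above and Ccr9, Ccr7, Ccr4 and Itga4 below, where 41.3% of all genes tested did not overlap. The median log2 fold change was -0.18 over the members and 0.02 over all genes tested. Without GFPhi replicate 3, 8 of the 9 were called, against 41.3% of 11745 genes, with 3 higher and 5 lower in GFPhi cells (19.5% and 21.7% of all genes). At a fold above 2 and an adjusted p under 0.01, 1 member was called in all 6 libraries, against 2.25% of genes, and 4 without that library, against 8.81%.

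Among the chemokine receptors, Ccr9 read 37.4, 52.7 and 69.3 CPM in the GFPlo libraries and 4.48, 4.78 and 36.4 CPM in the GFPhi libraries (replicates 1 to 3 in each). All GFPhi values lay below all GFPlo values, but replicate 3 lay just under the lowest GFPlo library and far above the other GFPhi libraries. The log2 fold change was -1.81 ± 0.86 (SE) with an adjusted p of 0.20 in edgeR's quasi-likelihood test, and -3.51 ± 0.29 with an adjusted p of 2.9e-04 without that library. The exons of Ccr9 overlap those of other annotated genes on both strands, so a share of these reads is uncertain. Ccr7 read 6.44, 6.74 and 7.31 CPM in GFPlo and 5.22, 5.05 and 3.58 CPM in GFPhi cells. Ccr4 read 7.18, 6.88 and 7.02 CPM in GFPlo and 4.45, 5.53 and 3.95 CPM in GFPhi cells. Both medulla-associated receptors were thus lower in each GFPhi library, by -0.56 ± 0.19 for Ccr7 (adjusted p 0.097) and -0.60 ± 0.17 for Ccr4 (adjusted p 0.065) on the log2 scale, in edgeR's quasi-likelihood test. They passed it without GFPhi replicate 3 (adjusted p 0.046 and 0.035). Cxcr4, the receptor with the most reads of the 4, read 263, 281 and 293 CPM in GFPlo and 244, 221 and 276 CPM in GFPhi cells, with overlapping groups. Its log2 fold change was -0.18 ± 0.10 (adjusted p 0.25), and -0.26 ± 0.07 (adjusted p 0.024) without that library, in the same edgeR test. Of the 3 other chemokine receptors with enough reads, none was called by edgeR, 2 had an unadjusted p under 0.05, and 1 was higher without GFPhi replicate 3.

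S1pr1 differed most widely among the GFPhi libraries. It read 10.2, 4.93 and 3.03 CPM in GFPlo cells and 43.9, 45.2 and 2.98 CPM in GFPhi cells. Replicates 1 and 2 of GFPhi were above each GFPlo library, and replicate 3 was below all of them. The log2 fold change of 2.35 ± 0.98 did not pass edgeR's quasi-likelihood test (adjusted p 0.16), and without that library it was 2.90 ± 0.39 (adjusted p 0.0019). Klf2, a transcription factor known to drive S1pr1 in T cells, split in the same way: 50.5, 40.6 and 44.6 CPM in GFPlo against 101, 92.7 and 31.8 CPM in GFPhi cells. Its log2 fold change was 0.73 ± 0.41 (adjusted p 0.26) in all libraries and 1.10 ± 0.10 (adjusted p 3.4e-04) without replicate 3, in the same test. Cd69, whose product binds S1PR1 and removes it from the cell surface, read 21, 15 and 13 CPM in GFPlo and 37.8, 29.3 and 31.8 CPM in GFPhi cells, replicate 3 included. It rose by 1.01 ± 0.20 on the log2 scale (adjusted p 0.027, edgeR) and was the only 1 of 8 other sphingosine 1-phosphate pathway genes called with all 6 libraries, while 2 rose and none fell without replicate 3.

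**Figure D2:**
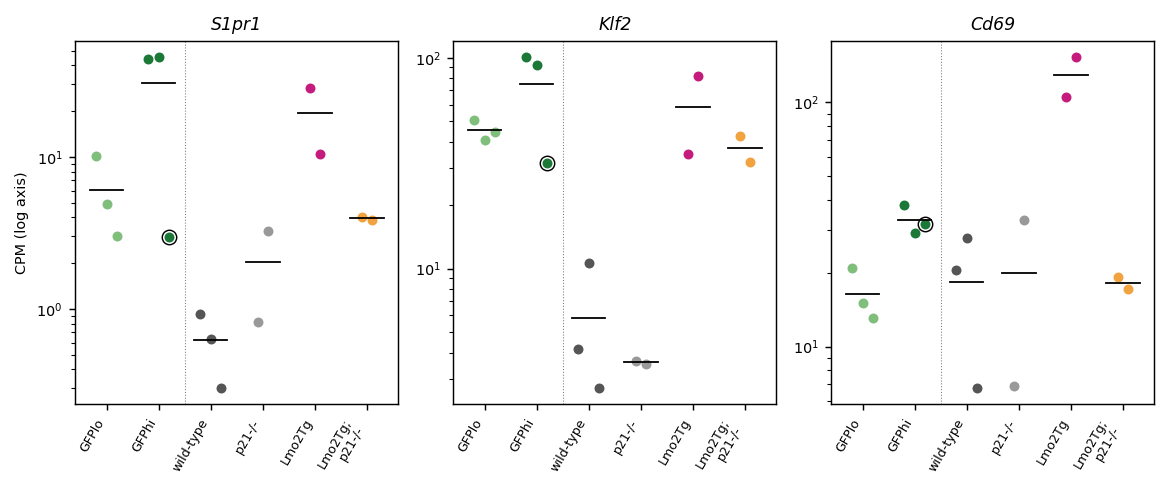
CPM (log axis) of S1pr1, Klf2 and Cd69 in each library, with lines at group means and a ring around GFPhi replicate 3. In that library S1pr1 (2.98 CPM) and Klf2 (31.8 CPM) lie below the GFPlo libraries, whereas Cd69 (31.8 CPM) lies above them.

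The integrin subunits changed in both directions. Itgae, the alpha E subunit, read 0.52, 0.56 and 0.48 CPM in GFPlo cells, from at least 14 reads a library, and 5.73, 7.95 and 4.69 CPM in GFPhi cells. Each GFPhi library was well above each GFPlo library, replicate 3 included. Itgae was 11.7-fold higher in GFPhi cells (log2 3.55 ± 0.27, adjusted p 0.0019 in edgeR's quasi-likelihood test), and it was called under each of the 14 alternatives (adjusted p from 1.6e-18 to 0.028). Itga4, the alpha 4 subunit and the member with the most reads, read 1888, 2017 and 2055 CPM in GFPlo and 921, 878 and 1249 CPM in GFPhi cells. The groups did not overlap, and Itga4 fell by 0.97 ± 0.15 on the log2 scale (adjusted p 0.012). It was not called without GFPlo replicate 2 (adjusted p 0.073, edgeR) or replicate 3 (0.062). Itga4 lies on chromosome 2, where the median of 923 genes was -0.18 in this comparison, and its value relative to that median was -0.79. Whether the lower readings of genes on that chromosome had a part in the Itga4 result was not tested.

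Itgb7, the beta 7 subunit shared by both alpha chains, read 347, 302 and 216 CPM in GFPlo and 463, 447 and 150 CPM in GFPhi cells. GFPhi replicates 1 and 2 lay above, and replicate 3 below, all GFPlo libraries. The log2 fold change was 0.29 ± 0.43 (adjusted p 0.67 in edgeR's quasi-likelihood test), and 0.66 ± 0.18 (adjusted p 0.023) without that library. Itgb7 lies on chromosome 15, whose 464 genes had a median of -0.43, so Itgb7 stood 0.72 above its chromosome, or 1.09 without replicate 3. Cdh1, the gene for E-cadherin, the ligand of alpha E beta 7, read 14.4, 17.4 and 16.7 CPM in GFPlo and 8.89, 3.69 and 10.9 CPM in GFPhi cells. It was lower in each GFPhi library, opposite to Itgae, by -1.05 ± 0.38 (adjusted p 0.12) and by -1.36 ± 0.33 (adjusted p 0.016, edgeR) without replicate 3. It was 1 of 2 ligand genes tested, neither of which was called by edgeR in all libraries, with 1 at an unadjusted p under 0.05. None of the 14 other integrin subunits tested was called by edgeR and 1 had an unadjusted p under 0.05, while without GFPhi replicate 3 edgeR called 3 higher and 5 lower of 15. Of 14 genes that activate integrins, 3 fell and none rose: Tln2, which encodes talin 2 (-2.72 ± 0.20 on the log2 scale, adjusted p 0.0018), Fyb (-0.67 ± 0.09) and Apbb1ip (-0.37 ± 0.08). Unlike Itgb7, these genes were not set against the medians of their own chromosomes, and the part of chromosome-wide readings in their values was not tested. Without GFPhi replicate 3, 4 of the 14 activators rose and 3 fell, those that rose by at most 0.34 (Vcl) on the log2 scale. Of all genes tested without that library, 19.5% were called higher and 21.7% lower.

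The 2 alpha subunits that pair with beta 7 were also set against each other within each library. For each 100 RPKM of Itga4 there were 0.0837, 0.0845 and 0.0717 RPKM of Itgae in GFPlo cells and 1.90, 2.76 and 1.15 RPKM in GFPhi cells. The ratio was higher in each GFPhi library. In the genotype libraries it was 4.13, 4.78 and 4.92 in wild-type, 4.42 and 3.50 in p21-/-, 0.558 and 0.524 in Lmo2Tg, and 0.599 and 1.09 in Lmo2Tg;p21-/- cells. Within the genotype libraries, all those without the transgene had a higher ratio than all those with it, and values from the GFP experiment, counted and normalized apart, are set beside them without a test.

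**Figure D3:**
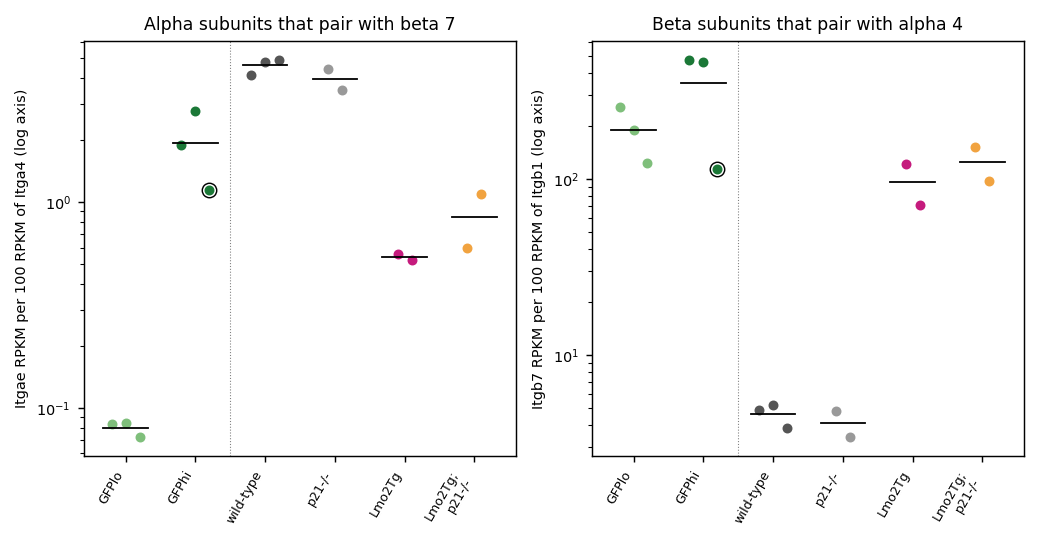
RPKM of Itgae per 100 RPKM of Itga4 (left) and of Itgb7 per 100 RPKM of Itgb1 (right) in each library, on log axes, with lines at group means and a ring around GFPhi replicate 3. The left ratio lies between 3.50 and 4.92 without the transgene and at most at 2.76 with it. The right ratio is at most 5.19 without the transgene and at least 71.6 with it.

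Selplg, which encodes PSGL-1, read 462, 430 and 401 CPM in GFPlo and 504, 468 and 470 CPM in GFPhi cells, all GFPhi values being above all GFPlo values by a narrow margin. The log2 fold change was 0.16 ± 0.07 (adjusted p 0.19 in edgeR's quasi-likelihood test) with a 95% interval from -0.02 to 0.34, and it was not called without GFPhi replicate 3 either (adjusted p 0.089). Of 12 genes for selectins and the enzymes that modify PSGL-1, 1 rose: Tpst2, a tyrosine sulfotransferase (0.67 ± 0.15, adjusted p 0.038, edgeR). Without GFPhi replicate 3, 4 rose and 4 fell, among them Fut4 (-1.11 ± 0.15) and Fut7 (-0.99 ± 0.22), where 19.5% of all genes rose and 21.7% fell.

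Among 25 genes of chemotactic signalling, 2 were higher in GFPhi cells, the G-protein subunit Gng2 (2.54 ± 0.44 on the log2 scale, adjusted p 0.018, edgeR) and the arrestin Arrb2 (0.61 ± 0.11), and 2 were lower, among them the other arrestin Arrb1 (-1.03 ± 0.12). Of 15 transcription factors and signalling genes known to act on the members, Smad7 was called, and it rose by 0.60 ± 0.09. Without GFPhi replicate 3, 6 chemotactic signalling genes rose and 5 fell, while 6 regulators rose, led by Klf2 (1.10 ± 0.10) and Foxo1 (0.74 ± 0.07), and 1 fell. In that fit 19.5% of all genes rose and 21.7% fell. Markers of other cells moved with the GFP groups as well. The B-cell markers summed to between 25.8 and 47.2 CPM in GFPhi and between 22.7 and 25.7 CPM in GFPlo libraries, with 3 of 5 tested rising (5 of 6 without GFPhi replicate 3), and Ms4a1 was at most 0.0322 CPM in GFPlo cells. Of the early progenitor markers Kit fell, from between 340 and 382 CPM in GFPlo to between 141 and 198 CPM in GFPhi libraries, and made up most of their sum, whereas Cd44 was not called in all libraries and rose without GFPhi replicate 3 (0.83 ± 0.13). Nkg7, a granule gene of NK cells, read between 164 and 194 CPM against 87.8 to 108 CPM. It was the only 1 of 4 NK markers with enough reads to test, the others reaching at most 0.887 CPM in any GFP library. Epcam, which thymic epithelium also expresses, rose by 1.59 on the log2 scale. It was the only 1 of 5 thymic epithelium markers tested, the others reaching at most 0.110 CPM. Of the later T-cell (4), myeloid (1), gamma-delta (1), erythroid (2) and endothelial (1) markers tested none was called by edgeR, 2 of them, both later T-cell markers, having an unadjusted p under 0.05. The later T-cell markers summed to 208, 179 and 174 CPM in GFPlo and to 228, 248 and 90.5 CPM in GFPhi libraries, so that, as for S1pr1 and Klf2, GFPhi replicates 1 and 2 lay above and replicate 3 below all GFPlo libraries. Without that library 2 of these 4 markers rose and 1 fell, and 1 of 2 myeloid markers rose. The dendritic markers were too low to test. In bulk libraries fewer cells of a type and less RNA per cell cannot be told apart, and the part of these markers in the receptor results was not tested.

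**Figure D4:**
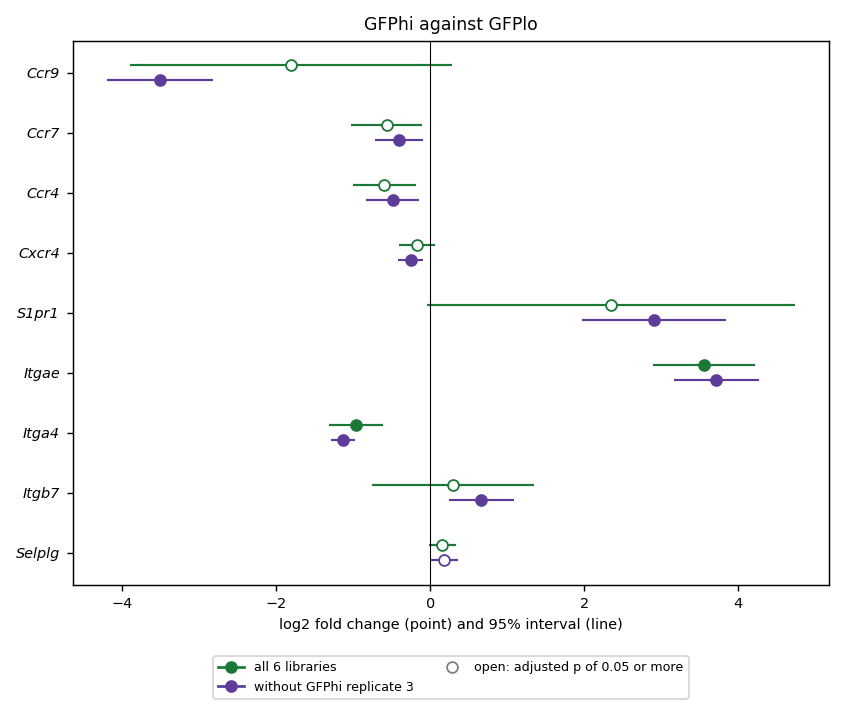
Log2 fold change of GFPhi against GFPlo cells with its 95% interval, from all 6 libraries and without GFPhi replicate 3. Filled points passed an adjusted p of 0.05 in edgeR's quasi-likelihood test. The intervals of Ccr9 and S1pr1 narrow most when that library is left out, and Itgae and Itga4 are called both ways.

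The next question was what the Lmo2 transgene changed in total DN3 cells. Between Lmo2Tg and wild-type cells 6 of the 9 members were called, with 2 higher (S1pr1 and Itgb7) and 4 lower (Ccr9, Itgae, Ccr7 and Selplg), against 36.6% of the 11840 genes tested (19.7% higher and 16.9% lower). At a fold above 2 and an adjusted p under 0.01, 4 members were called, against 9.74% of genes. These 6 were also the members whose library ranges did not overlap, where 60.9% of all genes did not. The median log2 fold change was -0.43 over the members and -0.01 over all genes. On the p21-/- background, 4 of the 9 were called between Lmo2Tg;p21-/- and p21-/- cells, against 30.7% of genes, with Itgb7 and Ccr7 higher (16.3% of genes) and Ccr9 and Itgae lower (14.4%), and 3 at the stricter threshold, against 8.3%. The library ranges of 7 members did not overlap there, where 70.9% of all genes did not. Ccr9, S1pr1, Itgae and Itgb7 were called between Lmo2Tg and wild-type cells under each of the 15 alternatives.

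Ccr9 read 154, 143 and 155 CPM in wild-type libraries and 13.7 and 10.6 CPM in Lmo2Tg libraries A and B. Without overlap, Ccr9 was 12.4-fold lower in transgenic cells (log2 -3.63 ± 0.17, adjusted p 3.3e-07 in edgeR's quasi-likelihood test). In p21-/- cells it read 189 and 133 CPM, and in Lmo2Tg;p21-/- cells 19.4 and 17 CPM, a log2 fold change of -3.15 ± 0.17 (adjusted p 9.6e-07). The transgene thus went with lower Ccr9 on both backgrounds. Ccr7 read 3.00, 2.86 and 3.69 CPM in wild-type, 1.99 and 1.39 CPM in p21-/-, 1.78 and 1.37 CPM in Lmo2Tg, and 3.35 and 4.05 CPM in Lmo2Tg;p21-/- cells. It fell by 1.02 ± 0.27 with the transgene when p21 was present (adjusted p 0.015), a call lost without Lmo2Tg library B (0.097), and rose by 1.12 ± 0.28 with the transgene when p21 was absent (adjusted p 0.012), both by edgeR. The second call was lost without p21-/- replicate 2 (adjusted p 0.10) or Lmo2Tg;p21-/- replicate 2 (0.071).

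Ccr4 and Cxcr4 gave no call in the genotype libraries. Ccr4 read 4.11, 4.07 and 4.66 CPM in wild-type, 4.22 and 3.35 CPM in p21-/-, 4.44 and 1.64 CPM in Lmo2Tg, and 3.21 and 3.20 CPM in Lmo2Tg;p21-/- cells. The Lmo2Tg libraries lay far apart, with -0.50 ± 0.33 on the log2 scale against wild-type (edgeR's adjusted p 0.26), and library B decided the value: it was 0.05 without B and -1.38, with an adjusted p of 0.0089, without A. Cxcr4 read 148, 148 and 225 CPM in wild-type, 186 and 142 CPM in p21-/-, 174 and 131 CPM in Lmo2Tg, and 217 and 177 CPM in Lmo2Tg;p21-/- cells, with a log2 fold change of -0.18 ± 0.20 between Lmo2Tg and wild-type and a 95% interval from -0.62 to 0.25. Of 5 other chemokine receptors tested, Ccrl2, a receptor that binds chemerin without signalling, rose by 3.36 ± 0.53 (adjusted p 7.1e-04), Ccr2 fell by 1.85 ± 0.44 on the log2 scale, and Ccr10, at 0 in both Lmo2Tg libraries and between 0.490 and 0.763 CPM in wild-type ones, was also called lower by edgeR.

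S1pr1 had the largest log2 fold change of the 9 members between Lmo2Tg and wild-type cells, but not on the p21-/- background. It read 0.92, 0.64 and 0.30 CPM in wild-type and 28.3 and 10.4 CPM in Lmo2Tg libraries. Both transgenic libraries were more than 10-fold above the highest wild-type library, and the log2 fold change was 4.95 ± 0.57 (adjusted p 8.4e-05 in edgeR's quasi-likelihood test). In p21-/- cells it read 0.82 and 3.23 CPM and in Lmo2Tg;p21-/- cells 4 and 3.86 CPM, a log2 fold change of 0.97 ± 0.61 with a 95% interval from -0.37 to 2.31 (adjusted p 0.25). Klf2 was higher with the transgene on both backgrounds, by 3.33 ± 0.45 with p21 (adjusted p 2.5e-04) and 3.37 ± 0.55 without it (adjusted p 0.0010, edgeR). It read 35.1 and 82.0 CPM in Lmo2Tg against 2.72 to 10.7 CPM in wild-type libraries. Of 9 other genes of the sphingosine 1-phosphate pathway, 4 rose and 3 fell between Lmo2Tg and wild-type cells, where 19.7% of all genes rose and 16.9% fell. The exporter Spns2 rose by 3.63 ± 0.28 (adjusted p 5.8e-06), Cd69 by 2.82 ± 0.53 (adjusted p 0.0022) and S1pr3 fell by 1.15 ± 0.37 (adjusted p 0.033), by edgeR.

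Itgb7 read 9.13, 9.86 and 7.32 CPM in wild-type, 9.50 and 6.71 CPM in p21-/-, 150 and 103 CPM in Lmo2Tg, and 205 and 138 CPM in Lmo2Tg;p21-/- cells. Libraries with and without the transgene were separated by more than 10-fold. Itgb7 was 14.4-fold higher in Lmo2Tg than wild-type (log2 3.85 ± 0.22, adjusted p 8.8e-07) and 21.1-fold higher in Lmo2Tg;p21-/- than p21-/- cells (log2 4.40 ± 0.26, adjusted p 1.3e-06), in edgeR's quasi-likelihood test. Itgb1, the other partner of alpha 4, fell by 0.50 ± 0.08 (adjusted p 8.2e-04). For each 100 RPKM of Itgb1 there were 4.90, 5.19 and 3.86 RPKM of Itgb7 in wild-type, 122 and 71.6 RPKM in Lmo2Tg, and 153 and 98.2 RPKM in Lmo2Tg;p21-/- cells.

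Itgae went the other way from its partner. It read 14.2, 15.3 and 10.4 CPM in wild-type, 12.3 and 11.0 CPM in p21-/-, 2.59 and 1.78 CPM in Lmo2Tg, and 2.64 and 4.59 CPM in Lmo2Tg;p21-/- cells. All libraries with the transgene were below all libraries without it. Itgae was 6.11-fold lower in Lmo2Tg than wild-type cells (log2 -2.61 ± 0.28, adjusted p 5.9e-05) and fell by 1.67 ± 0.27 between p21-/- and Lmo2Tg;p21-/- cells (adjusted p 0.0011, edgeR). Cdh1 fell by 2.27 ± 0.13 (adjusted p 7.5e-07), from between 58.2 and 67.6 CPM to 11.8 and 14.1 CPM. Itga4 read 1051, 979 and 645 CPM in wild-type, 849 and 961 CPM in p21-/-, 1415 and 1034 CPM in Lmo2Tg, and 1346 and 1287 CPM in Lmo2Tg;p21-/- cells. The Lmo2Tg and wild-type ranges overlapped by a narrow margin, at 0.46 ± 0.19 on the log2 scale (edgeR's adjusted p 0.075). It passed the test without wild-type replicate 1 (0.042) or Lmo2Tg library B (0.037) and with no filter (0.019), and the exons of Itga4 overlap those of Cerkl on the other strand.

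Of 15 other integrin subunits, 8 rose and 4 fell between Lmo2Tg and wild-type cells. Itga2, which pairs with beta 1 as a collagen receptor, was called higher, with 18 and 23 reads in the Lmo2Tg and at most 1 in the wild-type libraries, Itga9 rose by 2.24 ± 0.18, and Itgb4, a laminin receptor subunit, fell by 2.69 ± 0.15 on the log2 scale (adjusted p 7.3e-07, edgeR). Of 14 integrin activators, 6 rose and 2 fell, with Tln2 at 1.70 ± 0.30 and Rasgrp2, an activator of Rap1, at 1.01 ± 0.09. Selplg read 392, 378 and 466 CPM in wild-type, 404 and 331 CPM in p21-/-, 324 and 286 CPM in Lmo2Tg, and 400 and 350 CPM in Lmo2Tg;p21-/- cells. It fell by 0.43 ± 0.12 with the transgene (adjusted p 0.016 in edgeR's quasi-likelihood test), both Lmo2Tg libraries lying below the wild-type ones, and the call was lost without Lmo2Tg library B (adjusted p 0.11). Of 14 selectin and PSGL-1 glycosylation genes, 4 rose and 2 fell, and the fucosyltransferases Fut4 and Fut7 rose by 1.21 ± 0.21 and 0.80 ± 0.25. Beside these list counts, 19.7% of all genes tested rose and 16.9% fell with the transgene.

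Of 26 genes of chemotactic signalling, 11 rose with the transgene and none fell, among them Rgs1 (3.08 ± 0.62) and Rgs2 (1.73 ± 0.37), which shorten G-protein signals, and Arrb1 (1.01 ± 0.12). Of 15 known regulators, 7 rose and 2 fell, where 19.7% of all genes rose and 16.9% fell. Besides Klf2, Smad7, an inhibitor of TGF-beta signalling, rose by 2.31 ± 0.13 (adjusted p 7.3e-07), and Id2, an inhibitor of E proteins, by 1.37 ± 0.25 (adjusted p 0.0018, edgeR). Stage markers moved with the transgene as well. The DN3 markers summed to 6150 and 6663 CPM in Lmo2Tg against 8830 to 8909 CPM in wild-type libraries, with 5 of 7 lower. The later T-cell markers summed to 119 and 134 against 47.6 to 51.9 CPM, with 3 of 4 higher. The early progenitor markers summed to 142 and 217 against 70.8 to 93.8 CPM, with both tested markers higher. Kit, which the study names as a downstream target of Lmo2, made up most of that sum, at 129 and 199 CPM in Lmo2Tg libraries. The B-cell markers summed to 18.4 and 22.2 against 32.9 to 39.8 CPM, and Epcam fell by 1.46 and Lyz2, a myeloid gene, by 1.40 on the log2 scale, while Sox13, a gamma-delta gene, rose by 1.12. Of 2 endothelial markers Pecam1 rose by 0.48 and Cdh5 was called lower, with 0 reads in both Lmo2Tg libraries and 1.14 to 1.72 CPM in wild-type ones. In the genotype libraries too, Nkg7 and Epcam were the only NK and thymic epithelium markers with enough reads to test. Between Lmo2Tg;p21-/- and p21-/- cells 5 of 7 DN3 markers, Cd79b and Epcam fell, 2 of 4 later T-cell markers, Kit, Nkg7, Sox13, Adgre1 and Pecam1 rose, and Cdh5 was at 0 reads with the transgene. The part of these markers in the receptor results was not tested.

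**Figure D5:**
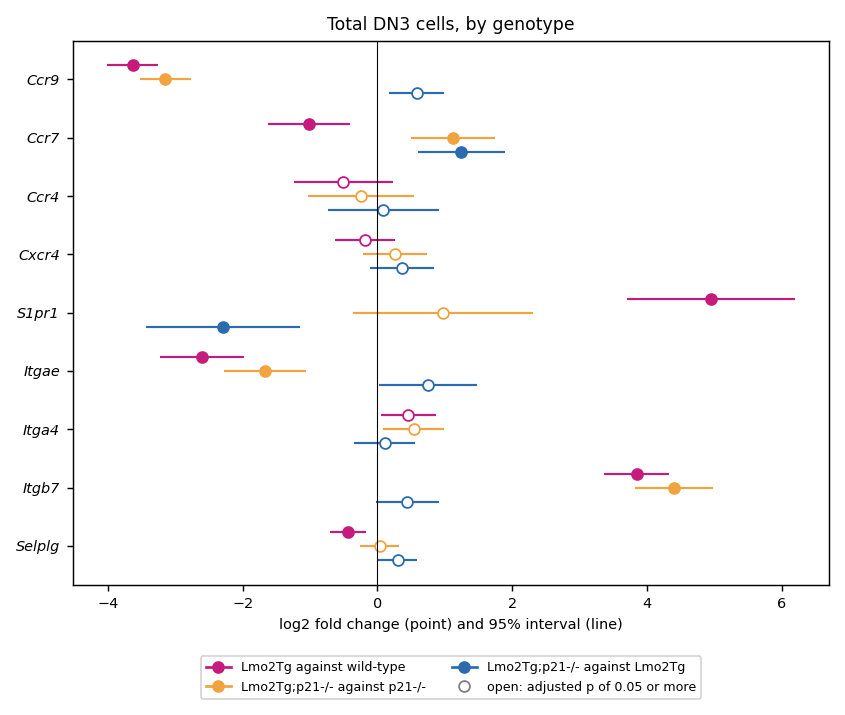
Log2 fold change with its 95% interval in total DN3 cells for Lmo2Tg against wild-type, Lmo2Tg;p21-/- against p21-/-, and Lmo2Tg;p21-/- against Lmo2Tg. Filled points passed an adjusted p of 0.05 in edgeR's quasi-likelihood test. Ccr9, Itgae and Itgb7 are called in both comparisons of the transgene, and S1pr1 and Ccr7 in the comparison of p21 loss among transgenic cells.

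The last question was whether loss of p21 moved these genes. Without the transgene, none of the 9 was called by edgeR between p21-/- and wild-type cells, where 0.11% of all genes were (0.0507% higher and 0.0591% lower, and 0.0845% at the stricter threshold), and 2 had an unadjusted p under 0.05: Ccr7 (-0.90 ± 0.26, adjusted p 0.98) and S1pr1 (1.68 ± 0.72, adjusted p 0.98). DESeq2 and limma-voom also called 0. Ccr7 was the 1 member whose library ranges did not overlap, where 19.5% of all genes did not. No gene of the 8 other pathway lists was called by edgeR, with 0 to 2 genes a list at an unadjusted p under 0.05. S1pr1 was uneven between the p21-/- libraries, at 0.82 and 3.23 CPM.

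Among transgenic cells, 2 of the 9 were called between Lmo2Tg;p21-/- and Lmo2Tg cells, against 6.94% of all genes, S1pr1 lower (3.59% of genes) and Ccr7 higher (3.35%). At the stricter threshold edgeR called 0, against 0.819% of genes, and 5 members had an unadjusted p under 0.05. The median log2 fold change was 0.37 over the members and 0.02 over all genes tested. S1pr1 fell by 2.30 ± 0.52, from 28.3 and 10.4 CPM to 4 and 3.86 CPM (adjusted p 0.027 in edgeR's quasi-likelihood test). The call was lost with DESeq2 (adjusted p 0.056), which called Ccr9 higher in its place, with only the groups compared (0.053), and without Lmo2Tg library A (log2 -1.41, adjusted p 0.12) or either Lmo2Tg;p21-/- library (0.16 and 0.093). Ccr7 rose by 1.24 ± 0.29, from 1.78 and 1.37 CPM to 3.35 and 4.05 CPM (adjusted p 0.032, edgeR), and was lost with only the groups compared (0.087), without either library of either group (0.060 to 0.18), and without wild-type replicate 1 or 2 (0.057 and 0.055). These calls therefore rest on few libraries.

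Of the other members, Ccr9 differed by 0.59 ± 0.18 (adjusted p 0.083), Itgae by 0.75 ± 0.33 (0.19) and Selplg by 0.30 ± 0.13 (0.18) on the log2 scale, in edgeR's quasi-likelihood test. Itgb7 (0.44 ± 0.21), Cxcr4 (0.37 ± 0.22), Itga4 (0.10 ± 0.21) and Ccr4 (0.09 ± 0.37) were not called either. For Ccr9, Itgae, Selplg and Cxcr4, all Lmo2Tg;p21-/- values lay above all Lmo2Tg values. In all, the ranges of 6 members did not overlap, where 54.8% of all genes tested did not. Cd69 fell by 2.83 ± 0.62 in Lmo2Tg;p21-/- cells (adjusted p 0.025), from 105 and 153 CPM to 19.2 and 17.2 CPM, whereas Klf2 read 42.6 and 31.9 CPM and was not called (-0.66 ± 0.44, adjusted p 0.39, edgeR). The regulators Id2 and Smad7 fell by 1.95 ± 0.29 and 1.02 ± 0.14, and they were the 2 of 15 called. Of 9 other sphingosine 1-phosphate pathway genes 1 rose, the receptor S1pr4 (0.59 ± 0.14), and 1 fell, Cd69. Of 26 chemotactic signalling genes 1 rose, Pik3cg (0.36 ± 0.09), and 1 fell, Rgs2 (-2.33 ± 0.43). Single genes were called among 5 other chemokine receptors (Ccrl2 lower, -2.27 ± 0.56), 15 other integrin subunits (Itga5 higher, 0.55 ± 0.15) and 3 ligands (Fn1, the gene for fibronectin, higher, 3.61 ± 0.70). Of 14 integrin activators and 14 selectin and PSGL-1 genes none was called by edgeR, with 1 and 5 at an unadjusted p under 0.05. The myeloid markers summed to between 15.6 and 22.6 CPM in Lmo2Tg;p21-/- and 6.66 and 6.84 CPM in Lmo2Tg libraries, and their part in these values was not tested.

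Whether loss of p21 acted differently with and without the transgene was tested as an interaction, in which 1 of the 9 members was called, against 1.38% of all genes (0.279% higher and 1.1% lower), and 0 at the stricter threshold, which no gene passed. For Ccr7 the difference between the log2 effects was 2.14 ± 0.39 (adjusted p 0.033 in edgeR's quasi-likelihood test), with p21 loss at -0.90 without and 1.24 with the transgene. It was lost in 9 of 14 alternatives, 8 of which left out a library. For S1pr1 the difference was -3.97 ± 0.88 (adjusted p 0.058), which DESeq2 called (adjusted p 0.020).

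The genes whose pattern over all 15 libraries was most like that of each member were found by Pearson correlation of log2 CPM, centred within each table, among 11252 genes. The libraries share groups and tables, so the values are a description. Itgb7 was followed most closely by Slc22a3 and Lyl1 (both r = 0.99), and Ccr9 by Cysltr1 (0.99), a cysteinyl leukotriene receptor, and Ttll9 (0.98). The study names Lyl1 as a downstream target of Lmo2. S1pr1 was followed by Kdm6b (0.96) and Hmox1 (0.95), Itgae by Arl6 and Fgf13 (both 0.96) and Itga4 by Tsc1 and Cep44 (both 0.96). The closest genes were less alike for Ccr4 (Slc35e3 0.94, Papss2 0.87), Selplg (Zfp94 0.93, Nupl2 0.92), Cxcr4 (Smug1 0.92, Tshz1 0.90) and Ccr7 (Asb8 and Snx20, both 0.89).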

How the data were processed

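The authors deposited raw read counts for 22114 protein-coding genes, with the GFP libraries and the genotype libraries in separate tables. The submitters' processing notes name mm10, STAR 2.4.2a, featureCounts and limma, with no roles given. The names of the deposited tables carry the word Reverse for the GFP libraries and No for the genotypes, which may be the strand setting of the counting but is not explained. If so, reads from the other strand over Ccr9 and Itga4 could be counted in the genotype table and not in the GFP table, and such reads are treated as uncertain in both. Of the genotype columns, 1 could not be tied to a labelled sample and was not used, and p21-/- replicate 3 was not analysed here. Of the gene identifiers 21721 matched GENCODE M21 (GRCm38), which gave positions and exon lengths.

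Counts were filtered with filterByExpr (minimum count 10, minimum total 15), scaled by TMM and tested in edgeR 4.0.16 (R 4.3.3) with the quasi-likelihood test over all genes, Benjamini-Hochberg adjusted, within each table. The 9 genotype libraries shared 1 estimate of the spread. Standard errors of log2 fold changes were the absolute log2 fold change divided by the square root of the test's F statistic. The 95% intervals were built from these, so neither measures the spread apart from the test. Log2 CPM for correlations and principal components used a prior count of 2. Alternatives were DESeq2 1.42.0, limma-voom (limma 3.58.1), RLE factors, no filter, a fold above 2 with an adjusted p under 0.01, scaling without chromosomes 2, 15 and 17, a block for replicate number, a fit of only those libraries being compared, and omission of single libraries. The fits were also run on simulated counts. These held no outlying library, chromosome-wide shift or pairing, so that run cannot show how the fits handle such features. No 2 libraries of a group agreed within sampling noise (chi-square per degree of freedom at least 2.64). The study profiled GFPhi and GFPlo cells from independent cohorts, but nothing states which cohort or which mice went into which library. The main test of the GFP libraries therefore used no pairing, and p-values measure the spread between these samples, which may be partly technical. The members, and the gene lists (pathway genes, regulators and cell-type markers), were chosen with earlier results of these data known. From each list, called genes with the largest log2 fold change and at least 1 CPM on average were named, at most 3 for each list and comparison. Ccr10, Klf2 and Cd69 beyond that rule, Itgb1, genes named only without GFPhi replicate 3 or on the p21-/- background, the markers beyond 3 a list and the values of Cdh1 were added after their values were seen.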

Additional observations from a re-analysis of the deposited data

Results flagged for a closer look

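The effect of p21 loss on Ccr7 differed between cells with and without the transgene, by 2.14 on the log2 scale (edgeR's quasi-likelihood test of the interaction, adjusted p 0.033). Ccr7 was lower in both p21-/- libraries than in all wild-type libraries and higher in both Lmo2Tg;p21-/- than in both Lmo2Tg libraries. Its highest reading in these groups was 4.05 CPM, and the adjusted p ranged from 0.0037 to 0.17 over the 14 alternatives.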

How the results depend on the processing

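The number of members called between GFPhi and GFPlo cells (2) was 1 at a fold above 2 with an adjusted p under 0.01, 8 without GFPhi replicate 3 and scaling without chromosomes 2, 15 and 17 (added after seeing the data), and from 1 to 8 when single libraries were left out: 8 without GFPhi replicate 3 and 1 without GFPlo replicate 2 or 3. Between Lmo2Tg;p21-/- and Lmo2Tg cells (2) it was 0 at that stricter threshold, 0 with only the groups compared, and 0 to 3 with libraries left out. In the interaction (1) it was 0 at the stricter threshold, 2 with DESeq2, 2 with no filter, and 0 to 2 with libraries left out. The cause of these shifts was not tested.

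To look for pairing, each library's log2 CPM was taken as its deviation from the mean of its own group. Over genes, these deviations correlated at 0.070, -0.079 and 0.099 between GFPhi and GFPlo libraries of the same replicate number. Between libraries of unlike number they correlated at -0.111 to 0.108. The study profiled both fractions from independent cohorts, and so few libraries cannot show whether those of the same number share a cohort. The main test did not pair them. With a replicate block 2 members were called between GFPhi and GFPlo cells and 0 between p21-/- and wild-type cells, as without it. All-gene calls went from 1721 to 496 and from 13 to 16. In the block fit the p21-/- against wild-type log2 fold changes of Cxcr4 turned to 0.14 and of Itga4 to -0.17. That fit held only the wild-type and p21-/- libraries, and wild-type replicate 3 had no p21-/- library of its number. The block was therefore not the only change.

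Leaving out single libraries turned the direction of log2 fold changes that were not called with all libraries. Between p21-/- and wild-type cells the ranges were -0.18 to 0.33 for Ccr9, -0.29 to 0.15 for Cxcr4, -0.17 to 0.16 for Itga4 and -0.39 to 0.12 for Itgb7. Between Lmo2Tg and wild-type they were -1.38 to 0.050 for Ccr4 and -0.40 to 0.048 for Cxcr4. Between Lmo2Tg;p21-/- and Lmo2Tg they were -0.47 to 0.96 for Ccr4 and -0.10 to 0.34 for Itga4, for Selplg between Lmo2Tg;p21-/- and p21-/- -0.11 to 0.18, and in the interaction -0.29 to 1.13 for Ccr4 and -0.12 to 0.32 for Itga4. Of the values of single members under all alternatives, 720 kept direction and side of the threshold, 33 lost a call, 29 gained one and 19 turned. S1pr1 in wild-type cells and Itgae in GFPlo cells rest on few reads.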
